A study of Mus musculus with 18 samples.

Results

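The genes described here carry mouse symbols of the form Zfp and a number, the historical name for zinc finger protein genes. Of 416 such genes in the reference table, 170 were named on the array through the gene number in the probe identifier, and 103 of these, on 122 of 222 Zfp probes, had a detection p under 0.05 on 3 or more of 18 arrays. In all, 4811 named genes and 21317 probes met that filter. The 103 genes are called the detected Zfp genes below. The remaining 67 were not, and 63 of them were detected on no array. Those 67 include Zfp36l2, Zfp37, Zfp42, Zfp59 and Zfp462.

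RNA came from enriched germ cells of male mice in the first wave of spermatogenesis, 3 biological replicate samples a group and 1 Illumina MouseWG-6 v1.1 BeadArray a sample. The genotypes were Ts65Dn, Ts1Cje and diploid wild-type (WT) littermates, each at 16-17 and at 19-20 days post partum (dpp). Both trisomies are mouse models of Down syndrome. Ts65Dn mice carry an extra small chromosome that holds distal chromosome 16 and the centromeric end of chromosome 17. Ts1Cje mice carry a shorter distal part of chromosome 16 in 3 copies, moved onto chromosome 12 with the Sod1 gene disrupted. The labels do not say of which trisomy the WT mice are littermates, or how the germ cells were enriched, and both models were compared with the same WT arrays. None of the 170 Zfp genes lay in a triplicated segment, bounded here by Mrpl39 (Ts65Dn) or Sod1 (Ts1Cje) on chromosome 16 and by Pde10a on chromosome 17. The nearest detected ones were Zfp654 at chr16:64780347-64851937 and Zfp54 at chr17:21423227-21435384, in build GRCm38.p6, against a segment that starts at 84718281 on chromosome 16 and one that ends at 8986648 on chromosome 17.

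Most Zfp genes encode proteins with arrays of C2H2 zinc fingers, small folds that hold a zinc ion and read DNA or, in some members, bind RNA. Many of these proteins carry a KRAB domain, which recruits the corepressor TRIM28 and histone-modifying enzymes to silence transposable elements and imprinted loci, and their genes often lie in clusters. The Zfp36 family is of another kind: its CCCH fingers bind AU-rich elements in messenger RNA and speed its deadenylation. Between the ages compared, the most advanced germ cells of a normal testis move from meiotic prophase towards the first round spermatids.

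The sequences shown are the 250 bases before the annotated start of 6 genes that were called with age in WT, 3 that rose and 3 that fell. In each of the 6 windows no more than 29 bases lie inside an annotated gene. Other genes called lower also met that limit and are not shown, among them Zfp330 and Zfp579, whose windows hold no CCAAT box. The sequences shown are from RefSeq, build GRCm38.p6, and run 5′ to 3′ on the strand of the gene. Capitals mark matches on either strand to the GC box GGGCGG, the CCAAT box CCAAT, the TATA box TATAAA, the MYB motif TAACNG, the RFX motif GTTGCC and the CRE TGACGTCA. In the Zfp36l1 window the TATA box and a CCAAT box overlap.
Zfp955a: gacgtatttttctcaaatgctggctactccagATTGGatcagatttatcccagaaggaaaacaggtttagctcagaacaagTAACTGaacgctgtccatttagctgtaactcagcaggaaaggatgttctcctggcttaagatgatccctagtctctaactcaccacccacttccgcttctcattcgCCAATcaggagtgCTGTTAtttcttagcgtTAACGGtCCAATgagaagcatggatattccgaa
Zfp866: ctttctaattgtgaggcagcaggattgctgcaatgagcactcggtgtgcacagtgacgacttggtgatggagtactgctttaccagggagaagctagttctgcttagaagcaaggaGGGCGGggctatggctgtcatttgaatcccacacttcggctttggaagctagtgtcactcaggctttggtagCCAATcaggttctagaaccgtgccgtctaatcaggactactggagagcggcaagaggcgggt
Zfp672: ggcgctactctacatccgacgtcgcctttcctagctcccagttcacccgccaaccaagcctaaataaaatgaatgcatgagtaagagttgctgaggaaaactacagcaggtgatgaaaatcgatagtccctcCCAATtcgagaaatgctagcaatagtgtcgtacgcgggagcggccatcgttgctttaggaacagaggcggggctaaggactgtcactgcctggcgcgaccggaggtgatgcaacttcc
Zfp64: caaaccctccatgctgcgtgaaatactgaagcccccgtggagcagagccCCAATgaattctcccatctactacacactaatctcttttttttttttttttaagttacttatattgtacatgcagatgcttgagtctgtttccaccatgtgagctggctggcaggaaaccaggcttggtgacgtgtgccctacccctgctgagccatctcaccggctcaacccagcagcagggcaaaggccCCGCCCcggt
Zfp281: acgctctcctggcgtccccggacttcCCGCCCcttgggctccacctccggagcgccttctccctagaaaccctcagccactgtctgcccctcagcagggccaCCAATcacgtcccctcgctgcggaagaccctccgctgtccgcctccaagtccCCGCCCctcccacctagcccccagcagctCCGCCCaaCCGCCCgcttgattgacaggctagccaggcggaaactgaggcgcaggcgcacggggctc
Zfp36l1: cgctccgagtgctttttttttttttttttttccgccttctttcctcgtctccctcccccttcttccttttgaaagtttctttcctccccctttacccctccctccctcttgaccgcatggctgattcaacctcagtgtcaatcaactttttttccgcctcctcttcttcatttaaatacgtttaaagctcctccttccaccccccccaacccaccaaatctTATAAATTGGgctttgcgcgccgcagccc
The windows lie at chr17:33255146-33255395 (minus strand) for Zfp955a, chr8:69774912-69775161 (minus) for Zfp866, chr11:58330340-58330589 (minus) for Zfp672, chr2:168955588-168955837 (minus) for Zfp64, chr1:136624651-136624900 (plus) for Zfp281 and chr12:80113014-80113263 (minus) for Zfp36l1.
Promoter windows were found for 81 of the detected Zfp genes. The CCAAT box was in 49.4% of the 81 against 34.5% of 27025 mouse promoter windows, and the GC box in 43.2% against 33%. The other motifs were less frequent: TATAAA was in 8.64% against 13%, TAACNG in 9.88% against 19.8%, GTTGCC in 6.17% against 10.5%, and TGACGTCA in none of the 81 against 1.6%. In WT, 11 genes that rose and 19 that fell had a window. The CCAAT box was in 7 of the 11 and 11 of the 19, the GC box in 6 and 9, and the median GC content was 52.8% and 61.6%, against 55.6% for the 81 and 52.0% for all windows. These counts describe the letters and were not tested.

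Between 17071 and 19748 probes were detected on an array, and between 93 and 116 of the 122 Zfp probes. Levels are log2 of the background-corrected, quantile-normalised intensity, and changes are log2 differences of group means. A gene was called at an adjusted p under 0.05 in limma, with Benjamini-Hochberg adjustment over all 21317 probes, on its brightest probe. Of the detected Zfp genes, 74 were detected on all 18 arrays, 20 on 9 to 17 and 9 on 3 to 8. Their median standard deviation within a group was 0.29, against 0.32 for all tested probes. Some arrays stood apart. Replicate 1 of WT at 16-17 dpp correlated with the WT 19-20 dpp arrays at 0.90 to 0.94, whereas the lowest and highest values for the other WT arrays of its age were 0.81 and 0.89. Replicate 1 of Ts1Cje at 16-17 dpp did so at 0.89 to 0.94, against 0.76 to 0.83 and 0.85 to 0.91 for replicates 2 and 3. Replicate 1 of Ts1Cje at 19-20 dpp correlated with the arrays of its own group at 0.93, and these with each other at 0.98. The counts of calls are given without each of these arrays below.

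Markers of cell types shifted with age. Of the round spermatid markers, 8 of 13 were tested, and their summed signal was 3625 to 9678 in WT at 16-17 dpp and 29341 to 50827 at 19-20 dpp. It was 2408 to 8895 and 27090 to 67451 in Ts1Cje, and 3502 to 4558 and 11181 to 23144 in Ts65Dn. Tssk1, Spata20 and Tssk2 were not detected on any WT array at 16-17 dpp, and Tssk2 on no Ts65Dn array at 19-20 dpp. The 2 pachytene to diplotene markers tested of 10 summed to 1976 to 5171 and 15315 to 22482 in WT, 1412 to 5060 and 12487 to 26679 in Ts1Cje, and 1533 to 2113 and 4992 to 10640 in Ts65Dn. The 2 meiotic prophase markers tested of 13 summed to 5317 to 6763 and 2221 to 2918 in WT, 5358 to 6613 and 1468 to 3378 in Ts1Cje, and 6030 to 6779 and 3603 to 4644 in Ts65Dn. That list includes Smc1a and Smc3, which encode core cohesin subunits, so its sums cannot be read as specific to meiotic prophase. The 3 Sertoli markers tested of 12 summed to 20154 to 27738 in WT at 16-17 dpp and 8110 to 11658 at 19-20 dpp, and all 3 fell. In Ts1Cje they summed to 13551 to 30976 and 6093 to 17510, and in Ts65Dn to 30136 to 34341 and 12100 to 18485. The 4 spermatogonial markers tested of 12 summed to 3288 to 4820 and 2117 to 2510 in WT, 3284 to 5208 and 1249 to 2138 in Ts1Cje, and 3942 to 4554 and 2990 to 3910 in Ts65Dn. Zbtb16 was not detected on any Ts1Cje array at 19-20 dpp. The 4 peritubular markers tested of 8 summed to 2759 to 10899 and 1147 to 6106 in WT, 4003 to 10634 and 1139 to 2117 in Ts1Cje, and 5120 to 7275 and 3594 to 5595 in Ts65Dn. None of the 6 Leydig and 4 macrophage markers tested was called with age in WT. The Leydig markers summed to 1127 to 1185 and 779 to 957 in WT and 1616 to 4275 and 522 to 644 in Ts65Dn. In Ts1Cje they summed to 793 to 2453 and 600 to 2675. The macrophage markers summed to 459 to 1581 and 467 to 920 in WT and 1007 to 1447 and 300 to 369 in Ts65Dn. In Ts1Cje they gave 820 to 2823 and 388 to 2248. The 2 endothelial markers tested gave 449 to 663 and 203 to 414 in WT and 715 to 783 and 486 to 663 in Ts65Dn. The part of these shifts in the Zfp values was not tested, and in bulk samples fewer cells of a type and less RNA per cell cannot be told apart.

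The comparison of 19-20 with 16-17 dpp in WT asks what happens to the Zfp genes as the first wave proceeds. A small set rose steeply, led by Zfp956, Zfp286 and Zfp654 among genes whose ages did not overlap, while a larger set fell, among them Zfp704, Zfp64, Zfp219 and Zfp532. In limma, 41 of the 103 detected Zfp genes were called, which is 39.8% against 46.7% of all probes. The 14 genes called higher stand against 18.5% of all probes and the 27 called lower against 28.2%. The share called was no higher than the background. Falls outnumbered rises with all arrays, but not without replicate 1 of WT at 19-20 dpp, where 9 were called higher and 8 lower. The median change was -0.20, against -0.23 over all probes. The Zfp changes ran from -2.26 to 2.70.

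**Figure D1:**
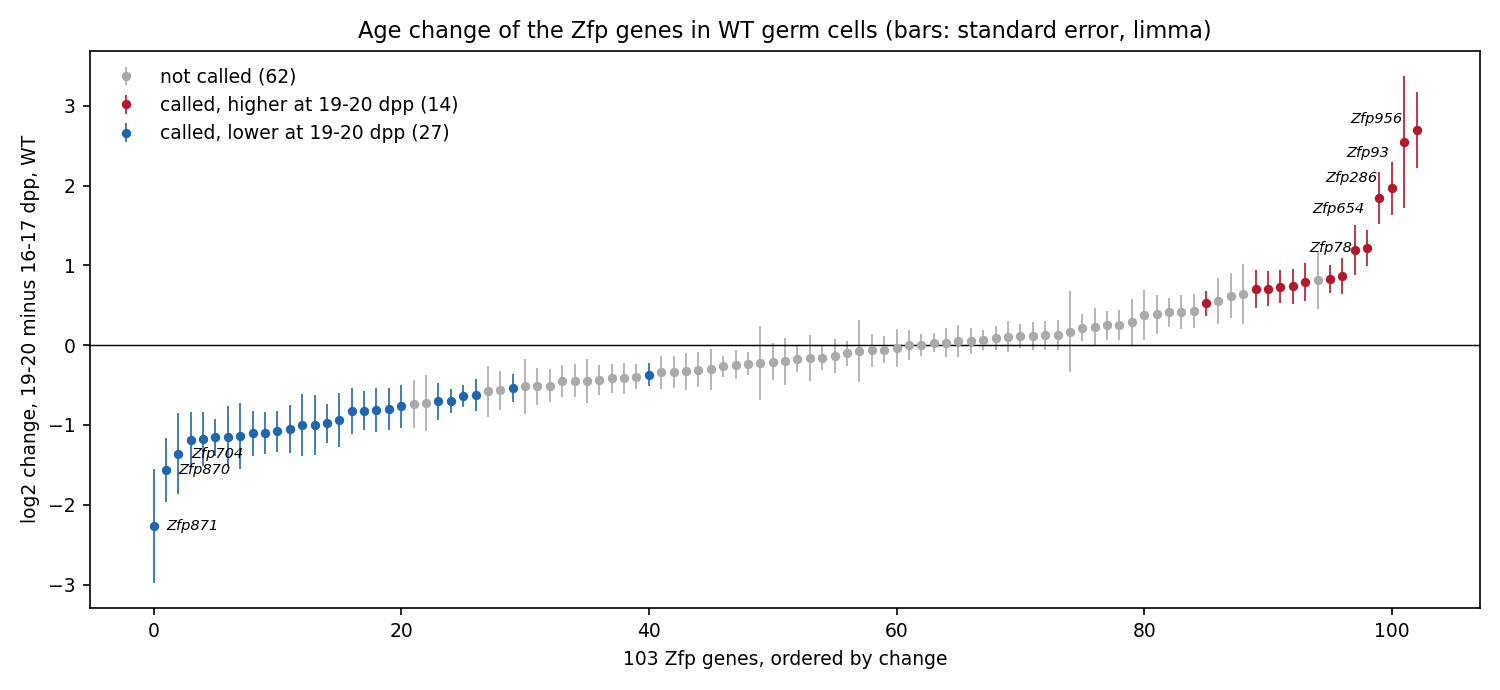
Log2 change from 16-17 to 19-20 dpp in WT (vertical axis) for the 103 detected Zfp genes in order of change (horizontal axis). Points are differences of means of 3 arrays, bars are standard errors, red marks the 14 genes called higher, blue the 27 called lower and grey the rest. The called rises run from 0.52 to 2.70, and most called falls lie between -0.5 and -1.4.

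Zfp956, at chr6:47953390-47965300, gave 10.26, 8.94 and 9.37 on the WT arrays at 16-17 dpp and 12.41, 12.19 and 12.08 at 19-20 dpp. All later arrays were above all earlier ones, and the earlier array nearest to them was replicate 1. It rose by 2.70 ± 0.48 (SE; limma adjusted p = 0.00103), and without that array by 3.07. Its annotated span overlaps that of the noncoding gene Zfp783, and where its probe lies in that span is not known here.

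Zfp654, at chr16:64780347-64851937, gave 11.37, 10.44 and 10.67 at 16-17 dpp and 12.95, 12.56 and 12.50 at 19-20 dpp in WT. The groups did not overlap, and its rise was 1.84 ± 0.32 (adjusted p = 0.000971 in limma). Its second probe, read on a level of its own, rose by 2.05 ± 0.41 (adjusted p = 0.00214 in limma). Zfp286, at chr11:62751951-62789506, gave 8.59, 7.64 and 7.83 and then 10.10, 9.92 and 9.94. Its groups lay well apart, with a rise of 1.97 ± 0.33 (adjusted p = 0.000812 in limma).

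Zfp78, at chr7:6362809-6382606, was among the tightest of the genes that rose. It gave 8.88, 8.73 and 8.87 in WT at 16-17 dpp and 10.37, 9.85 and 9.92 at 19-20 dpp, a rise of 1.22 ± 0.23 (adjusted p = 0.00138 in limma). Zfp955a, at chr17:33239507-33255168, gave 7.81, 7.52 and 7.91 and then 9.22, 8.95 and 8.64. These groups did not overlap either, and it rose by 1.19 ± 0.31 (adjusted p = 0.00813 in limma). Its second probe was detected on 3 arrays only and changed by 0.46 ± 0.25, which did not pass (adjusted p = 0.137 in limma). Smaller rises were those of Zfp397 (0.86 ± 0.22), Zfp346 (0.82 ± 0.17) and Zfp62 (0.80 ± 0.24).

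Among the genes that fell, Zfp219, a transcription factor known as a partner of Sox9 in cartilage, gave 13.02, 13.30 and 13.38 in WT at 16-17 dpp and 11.59, 12.28 and 12.28 at 19-20 dpp. It fell by 1.18 on the log2 scale (SE 0.34; adjusted p = 0.0124 in limma), with no overlap. Zfp64 gave 9.82, 10.09 and 10.08 and then 8.36, 9.08 and 9.01. The earlier arrays lay close together and above all the later ones, and the change was -1.18 ± 0.34 (adjusted p = 0.0133 in limma). The dimmer Zfp64 probe had the same sign and did not pass. Zfp532 changed by -1.15 ± 0.23, Zfp467, which promotes fat cell commitment, by -1.15 ± 0.38, Zfp398 by -1.14 ± 0.41 and Zfp704 by -1.36 ± 0.50. The dimmer Zfp704 probe also had the same sign and did not pass.

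Zfp871 and Zfp870, neighbours on chromosome 17, had the largest falls but were dim at the later age. Zfp871 gave 8.62, 8.92 and 9.0 and then 6.66, 5.63 and 7.47, and 2 of the 3 later arrays detected it. Its later values were widely spread, and the change was -2.26 ± 0.71 (adjusted p = 0.0193 in limma). Zfp870 gave 7.46, 8.20 and 7.18 at 16-17 dpp and was not detected on any WT array at 19-20 dpp. It was at least 1.93-fold lower there (measured means 7.61 and 6.05; adjusted p = 0.00745 in limma).

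How far these calls depended on single arrays differed between genes. Without replicate 1 of WT at 16-17 dpp, 45 detected Zfp genes were called, 38 of them among the 41. Without replicate 1 of WT at 19-20 dpp the count was 17, of which 16 were among the 41, and without replicates 2 and 3 of WT at 16-17 dpp it was 21 and 23. The shares of all probes called without these arrays are not given beside the counts. Of the 22 called genes named here by size or by role, 11 kept their call whichever WT array was left out: Zfp956, Zfp286, Zfp654, Zfp78, Zfp955a, Zfp397, Zfp346, Zfp532, Zfp870, Zfp281 and Zfp451. The other 11, among them Zfp62, Zfp219, Zfp64, Zfp467, Zfp398, Zfp704 and Zfp871, lost it without replicate 1 of WT at 19-20 dpp.

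Of 12 transcription and chromatin regulators listed, 7 were tested and 5 fell in WT, where 28.2% of all probes were called lower, and the list median was -0.70 against -0.23 over all probes. Without replicate 1 of WT at 19-20 dpp the 5 became 1, Zfp281, with a list median of -0.54, and without replicates 2 and 3 of WT at 16-17 dpp they became 3 and 2. Zfp281, a regulator of pluripotency in embryonic stem cells, gave 11.71, 11.73 and 11.83 at 16-17 dpp and 10.76, 11.23 and 11.21 at 19-20 dpp, and fell by 0.70 on the log2 scale (adjusted p = 0.00323 in limma). Zfp148 changed by -0.80 ± 0.26, Zfp521 by -0.77 ± 0.27 and Zfp410, an activator of the chromatin remodeller gene Chd4, by -0.54 ± 0.18. Of the WT arrays at 19-20 dpp, 2 of 3 detected Zfp521. Zfp592 (0.22 ± 0.17) and Zfp687 (-0.31 ± 0.22) did not pass, and Zfp687 was detected on 1 WT array of 6 in all, at 16-17 dpp.

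Of the mRNA decay factors of the Zfp36 family, only Zfp36l1 was tested. It gave 9.98, 10.98 and 10.76 in WT at 16-17 dpp and 9.78, 10.14 and 8.81 at 19-20 dpp. One later array lay above the lowest earlier one, so the groups overlapped, and the change was -1.0 ± 0.38 (adjusted p = 0.0419 in limma). Its second probe, detected on 3 arrays, did not pass (-0.37 ± 0.22).

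The proteins that act on RNA, ribosomes or cell division gave 1 rise and 1 fall among 5 tested of 11, beside 18.5% and 28.2% of all probes. Zfp346, which binds double-stranded RNA, rose, and Zfp451, a SUMO ligase, fell. Zfp451 was the steadier: its WT arrays gave 10.75, 10.70 and 10.73 and then 9.96, 10.17 and 10.13, a change of -0.64 ± 0.14 (adjusted p = 0.00307 in limma). Zfp207, which binds the checkpoint protein Bub3 at kinetochores, gave -0.27 ± 0.13, the RNA-binding protein gene Zfp638 -0.10 ± 0.16 and Zfp593 -0.17 ± 0.16, and none of these passed.

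Of 7 genes listed for silencing, 2 were tested and none passed in WT: Zfp445, which protects imprints, at -0.51 ± 0.21 (adjusted p = 0.0535 in limma) and Zfp932 at -0.30 ± 0.26. The other Zfp445 probe had the opposite sign. Of 6 listed for germ cells, Zfp318 alone was tested, at 0.09 ± 0.15. Its WT arrays gave 12.50, 12.24 and 12.31 and then 12.56, 12.54 and 12.22, so the ages overlapped. Of 18 detected Zfp genes with several tested probes, 15 had probes of the same sign with age in WT, and none had probes called in opposite directions.

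Genes of the complexes with which Zfp proteins work, and other C2H2 genes, were counted the same way. The background was 18.5% of all probes called higher and 28.2% called lower. Of 24 listed members of the KRAB corepressor complexes, 9 were tested and 2 fell in WT: Cbx3 (-0.93 ± 0.30), a heterochromatin protein, and Gatad2b (-0.68 ± 0.25), a subunit of the NuRD complex. None rose, and the median was -0.13. Trim28 was not among the 9 tested. Of 26 listed deadenylation and decay genes, 13 were tested, 5 fell and 2 rose, the largest being Cnot4 (-0.97 ± 0.20) and Pabpc1 (0.91 ± 0.28), which encodes the cytoplasmic poly(A)-binding protein. Of 43 other C2H2 genes listed, 19 were tested, 5 rose and 9 fell, led by Zscan2 (1.67 ± 0.56) and Zkscan17 (1.51 ± 0.26), and the median was -0.76 against -0.23 over all probes.

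By position, 25 detected Zfp genes lay on chromosome 7, where 3 rose and 5 fell in WT, and 11 on chromosome 6, where 2 rose and 4 fell, beside 18.5% higher and 28.2% lower among all probes. The largest cluster, with gaps of at most 1 Mb between neighbours, was at chr6:47835633-48534832 and held 9 detected Zfp genes, all 9 that the reference lists there. In WT 4 of its genes fell and 1 rose. Zfp282 changed by -0.98 ± 0.24 and Zfp777 by -1.10 ± 0.26, like Zfp398 and Zfp467 of the same cluster, whereas Zfp956 rose between them. Zfp212 (0.25 ± 0.18), Zfp746 (0.13 ± 0.18), Zfp783 (-0.73 ± 0.35) and Zfp862-ps (-0.52 ± 0.23) did not pass. The cluster's genes were picked for their position, with these values already seen.

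**Figure D2:**
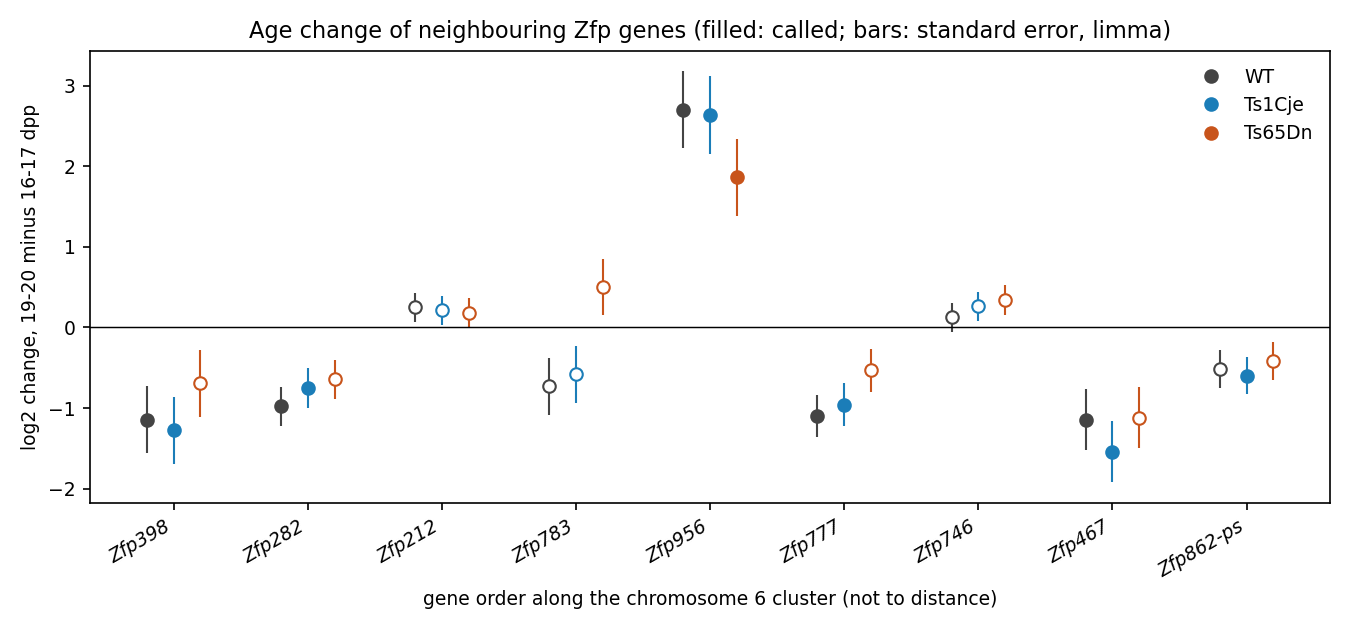
Log2 change from 16-17 to 19-20 dpp (vertical axis) of the 9 Zfp genes of the chromosome 6 cluster in gene order (horizontal axis, not to distance), in WT, Ts1Cje and Ts65Dn. Points are differences of means of 3 arrays, bars are standard errors and filled points were called. Zfp956 lies above 1.8 in each genotype, and no other gene of the cluster was called higher.

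In Ts1Cje the same age comparison called 41 of 103 detected Zfp genes, or 39.8% against 45.3% of all probes. Of these, 8 were higher, where the background was 18%, and 33 lower, where it was 27.3%. With only the Ts1Cje arrays in the fit, 5 were higher and 5 lower. The median was -0.25 against -0.21 over all probes. The WT and Ts1Cje age comparisons share no arrays, but both take their spread from the same fit over all 18 arrays. Their lists are therefore not independent. In both, 27 genes were called with the same sign, 65.9% of each list, and 7 of them rose while 20 fell. Over all probes the shared calls made up 75.1% of the WT and 77.3% of the Ts1Cje list. No detected Zfp gene was called in opposite directions. Without replicate 1 of Ts1Cje at 16-17 dpp 45 were called in Ts1Cje. Without replicate 1 at 19-20 dpp the count was 21, all among the 41, and without replicate 2 at 16-17 dpp it was 24.

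Zfp956 gave 10.06, 8.35 and 9.87 in Ts1Cje at 16-17 dpp and 12.86, 11.52 and 11.79 at 19-20 dpp, and rose by 2.64 ± 0.48 (adjusted p = 0.000994 in limma). Zfp654 rose by 1.85 ± 0.32, Zfp955a by 1.49 ± 0.31, Zfp94 by 1.38 ± 0.29 and Zfp78 by 1.25 ± 0.23. In all 5 the later arrays lay above the earlier ones.

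The largest fall in Ts1Cje was that of the mRNA decay factor Zfp36l1, which gave 10.65, 11.65 and 10.59 and then 8.51, 9.07 and 9.35. The ages did not overlap there, and the change was -1.99 ± 0.38 (adjusted p = 0.00127 in limma). Its second probe, detected on 3 arrays, gave -0.49 ± 0.22 and did not pass (adjusted p = 0.0834 in limma). Zfp521 changed by -1.71 ± 0.27, Zfp467 by -1.54 ± 0.38, Zfp398 by -1.28 ± 0.41 and Zfp292 by -1.23 ± 0.26. Zfp521 was dim at the later age, with a mean of 6.47 and detection on 2 of 3 Ts1Cje arrays. Of the transcription and chromatin regulators, 5 of 7 tested fell, against 27.3% of all probes called lower, and without replicate 1 of Ts1Cje at 19-20 dpp 2 of them did. Zfp451 and Zfp932 fell by 0.85 and 0.86, and Zfp932 lost its call without that array. The test of the difference between the Ts1Cje and WT age changes called none of 103 detected Zfp genes in limma, where 0% of all probes passed and 6 Zfp genes had an unadjusted p under 0.05. With array weights none was called either.

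In Ts65Dn the age comparison called 6 of the 103, 3 higher and 3 lower, or 5.83% against 8.72% of all probes (6.18% higher and 2.54% lower). With only the Ts65Dn arrays in the fit, 28 were called, 8 higher and 20 lower. With array weights the count was 55, and with replicate number as a block 30. Shares of all probes called under these settings are not given here, so the counts cannot be read as particular to the Zfp genes. The median was -0.20, against -0.09 over all probes. Of the 6, the genes that rose, Zfp956, Zfp286 and Zfp955a, were also called higher in the other genotypes. Zfp956 gave 8.83, 8.89 and 9.40 at 16-17 dpp and 11.69, 10.29 and 10.73 at 19-20 dpp, a rise of 1.86 ± 0.48 (adjusted p = 0.0343 in limma) with no overlap. Zfp286 rose by 1.22 ± 0.33 and Zfp955a by 1.05 ± 0.31, although the second Zfp955a probe gave -0.16 ± 0.25. Those of the 6 that fell were Zfp931 (-1.32 ± 0.29), Zfp322a (-0.71 ± 0.21) and Zfp668. Zfp668 was not detected on any Ts65Dn array at 19-20 dpp and was at least 1.24-fold lower there. Zfp931 fell from 7.86, 7.76 and 7.79 to 6.86, 6.09 and 6.52, and Zfp322a from 7.78, 7.30 and 7.10 to 6.52, 6.68 and 6.84.

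None of these 6 calls held on leaving out each array in turn. Without replicate 2 of Ts65Dn at 19-20 dpp, 3 detected Zfp genes were called, 2 of them among the 6 (Zfp956 and Zfp286), and without any other one of the Ts65Dn arrays the count was 0. The Zfp956 change ranged from 1.47 to 2.17 over all alternatives run. The test of the difference between the Ts65Dn and WT age changes called none of the 103 in limma, where 0% of all probes passed and 13 Zfp genes had an unadjusted p under 0.05. With array weights it called 14, and the share of all probes called in that fit is not given.

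**Figure D3:**
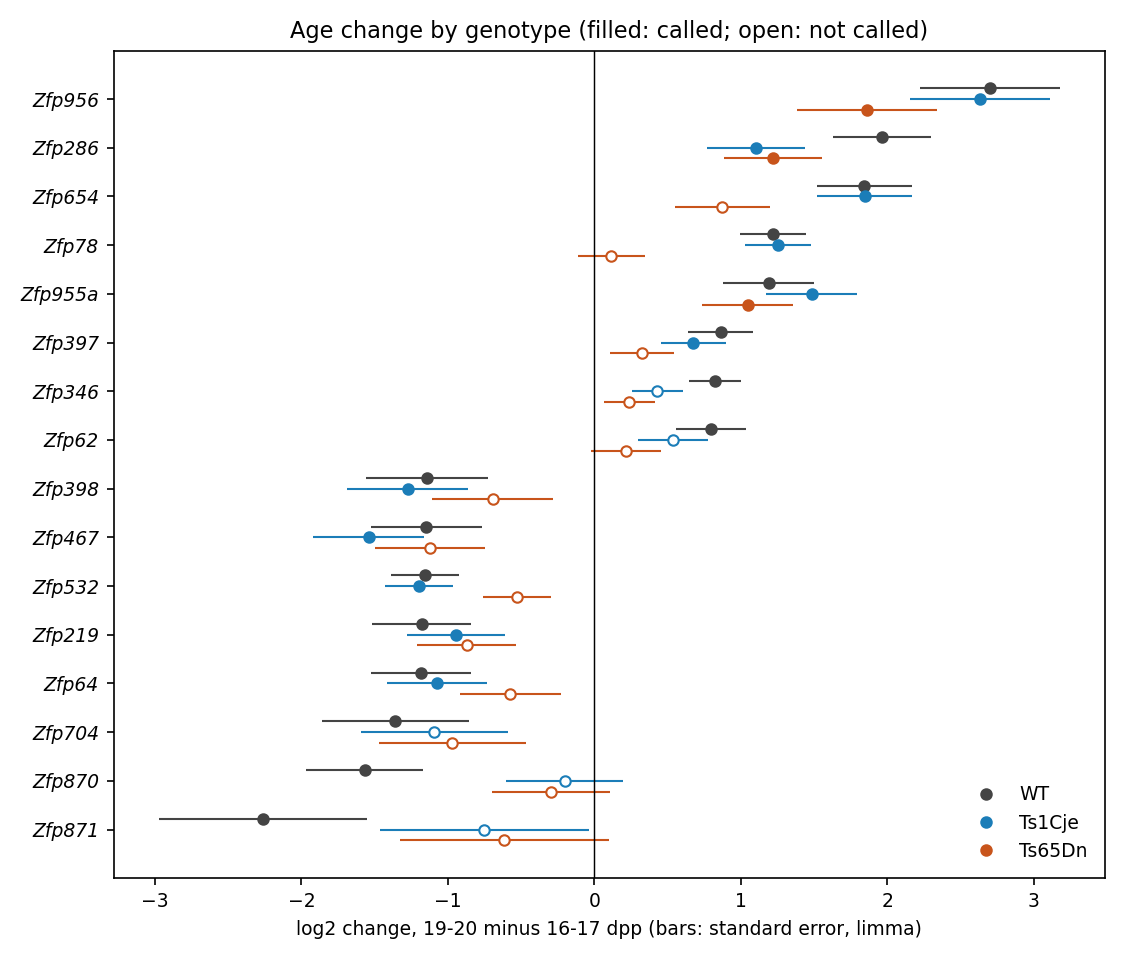
Log2 change from 16-17 to 19-20 dpp (horizontal axis) in WT, Ts1Cje and Ts65Dn for the 16 Zfp genes with the largest called changes in WT (vertical axis). Points are differences of means of 3 arrays, bars are standard errors, filled points were called and open ones were not. Zfp78 stands near 1.2 in WT and Ts1Cje and at 0.12 in Ts65Dn.

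Ts65Dn was compared with WT at each age. At 16-17 dpp limma called no detected Zfp gene, against 0.0188% of all probes (0.0188% higher and 0% lower). An unadjusted p under 0.05 was reached by 16 Zfp genes, and with array weights 3 were called. The smallest p-values were those of Zfp395 (1.39 ± 0.39; adjusted p = 0.337 in limma), Zfp68 (1.74 ± 0.51) and Zfp870 (-1.25 ± 0.40), none of which passed. Zfp68 was widely spread in WT, at 6.88, 8.77 and 9.11, and read 9.80, 10.29 and 9.88 in Ts65Dn. The lowest of these WT values belongs to replicate 1 of WT. Without that array the Zfp68 difference was 1.05 ± 0.42, and no detected Zfp gene was called either.

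At 19-20 dpp, 3 detected Zfp genes were called between Ts65Dn and WT, or 2.91% against 4.81% of all probes. Of these, 2 were lower, against 3.01% of all probes, and 1 higher, against 1.8%. Zfp78 was lower: its WT arrays gave 10.37, 9.85 and 9.92 and its Ts65Dn arrays 8.95, 8.68 and 8.79. The groups were separated by a wide gap, and the difference was -1.24 ± 0.23 (adjusted p = 0.0179 in limma). In Ts65Dn this gene read 8.43, 8.95 and 8.69 at 16-17 dpp, so the ages overlapped, with an age change of 0.12 ± 0.23. The difference between the Ts65Dn and WT age changes of Zfp78 was -1.10 ± 0.32 and did not pass (adjusted p = 0.181 in limma).

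Zfp654 was lower as well. Its brightest probe gave 12.95, 12.56 and 12.50 in WT and 11.83, 10.96 and 11.51 in Ts65Dn, without overlap, a difference of -1.24 ± 0.32 (adjusted p = 0.045 in limma). Its second probe gave -1.39 ± 0.41 and missed the threshold (adjusted p = 0.0604 in limma). Zfp451, the SUMO ligase gene, was higher in Ts65Dn, at 10.62, 10.64 and 10.76 against 9.96, 10.17 and 10.13 in WT. Both sets were tight, and the difference was 0.59 ± 0.14 (adjusted p = 0.0352 in limma).

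**Figure D4:**
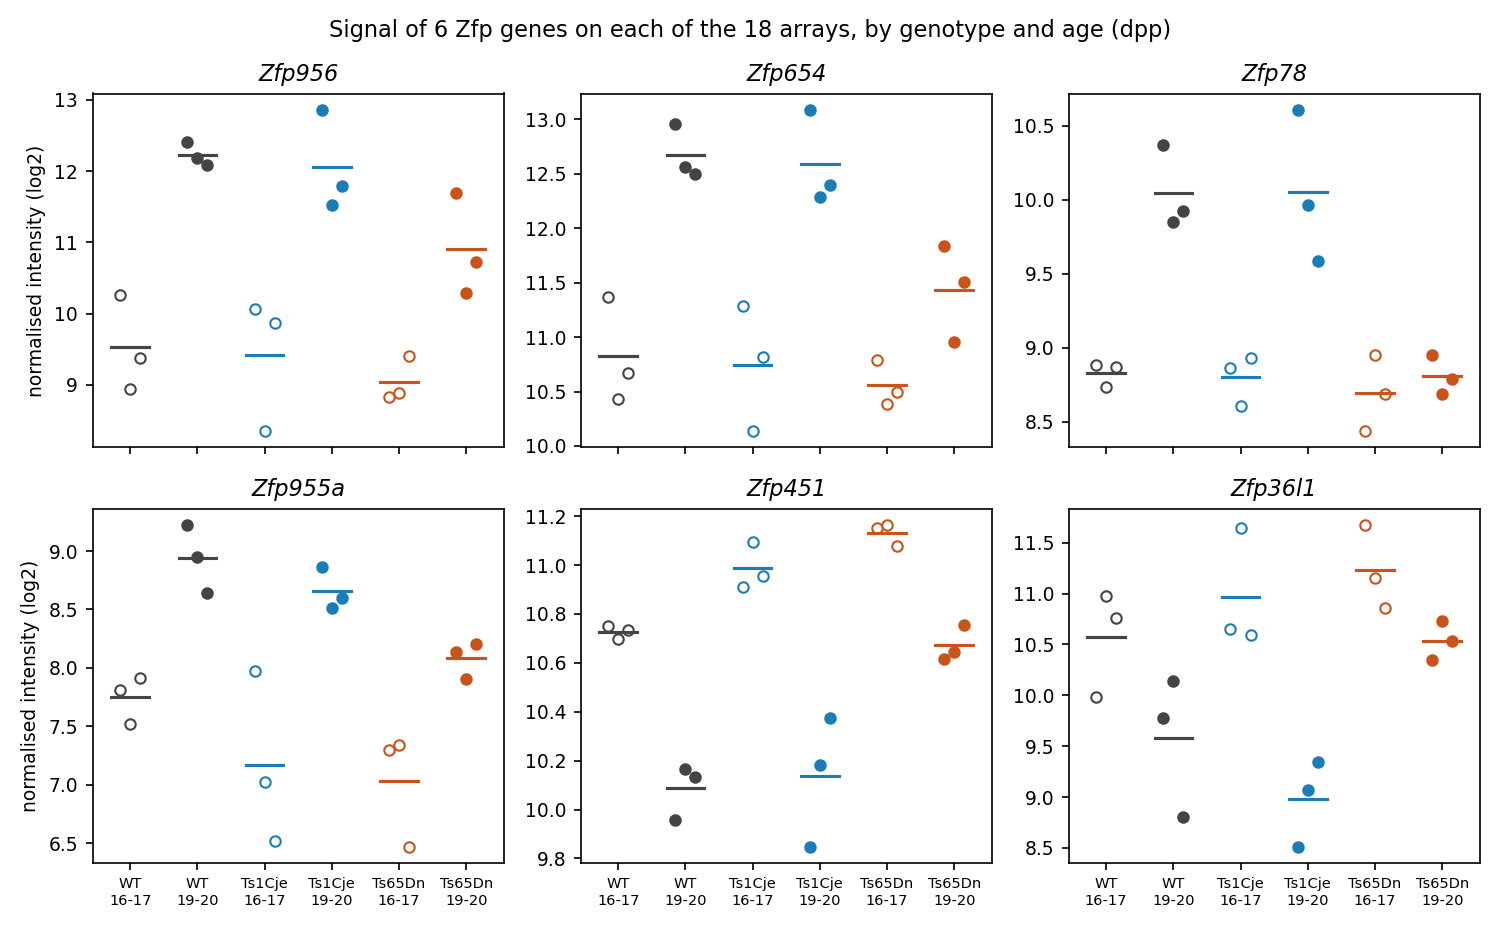
Normalised log2 intensity (vertical axis, not from 0 and scaled to each gene) of 6 Zfp genes on each array by genotype and age (horizontal axis). Open points are arrays at 16-17 dpp, filled points arrays at 19-20 dpp and lines group means of 3 arrays. The Zfp78 arrays of Ts65Dn at 19-20 dpp lie between 8.68 and 8.95, within the range of the 16-17 dpp arrays, and those of WT and Ts1Cje at 19-20 dpp lie above 9.5.

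These genotype calls rested on few arrays. Without replicate 1 of WT, or replicate 2 or 3 of Ts65Dn, at 19-20 dpp, none of the 3 passed: the Zfp78 difference was then -1.08, -1.18 and -1.23, with adjusted p in limma of 0.12, 0.123 and 0.0883. Zfp654 and Zfp451 also missed the threshold without WT replicate 2 (adjusted p in limma 0.0654 and 0.0524) or WT replicate 3 (0.0797 and 0.0709). Scaling each array to a common median in place of quantile normalisation moved the median of all probes from 0.11 to 0.32. Relative to that median, Zfp78 was -1.35 with quantile normalisation and -1.27 with median scaling, where it was the only call left, and Zfp451 was 0.48 and 0.55. Beside these values, 1 of 8 tested round spermatid markers was lower in Ts65Dn than in WT at 19-20 dpp, with a list median of -1.46, as was 1 of 2 pachytene to diplotene markers (-1.31). Of the 2 markers tested from the meiotic prophase list, which includes core cohesin genes, 1 was higher (0.70). None of the 3 Sertoli markers was called, with a list median of 0.68. The part of these shifts in the Zfp differences was not tested.

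Ts1Cje was compared with WT at each age, and no detected Zfp gene was called at either, as 0% of all probes were. In limma 3 genes at 16-17 dpp and 6 at 19-20 dpp had an unadjusted p under 0.05, and the count of calls stayed at 0 under every alternative run. The smallest p-values at 19-20 dpp were those of Zfp458 (0.63 ± 0.18), Zfp940 (-0.74 ± 0.22) and Zfp341 (-0.69 ± 0.27), and at 16-17 dpp those of Zfp68 (1.28 ± 0.51), Zfp870 (-0.96 ± 0.40) and Zfp773 (0.42 ± 0.20). At 19-20 dpp Zfp458 was detected on 2 Ts1Cje arrays and on no WT array. Without replicate 1 of WT at 16-17 dpp the Zfp68 difference was 0.60 ± 0.42. The adjusted p was 1 for all of these in limma.

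The models were then compared with each other. At 16-17 dpp no detected Zfp gene was called in limma, as 0% of all probes were, and with array weights none was called either, while 5 had an unadjusted p under 0.05. Zfp593 (0.48 ± 0.16), Zfp330 (0.71 ± 0.28) and Zfp668 (0.53 ± 0.21) had the smallest p-values and did not pass. At 19-20 dpp 10 were called, 8 higher and 2 lower in Ts65Dn, or 9.71% against 11.8% of all probes (7.34% higher and 4.44% lower). The Ts65Dn arrays are those compared with WT above, so the comparisons are not independent, and the values against WT are set beside the others for that reason.

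Zfp36l1 gave 10.34, 10.73 and 10.54 in Ts65Dn at 19-20 dpp and 8.51, 9.07 and 9.35 in Ts1Cje. All Ts65Dn arrays were above all Ts1Cje arrays, by 1.56 ± 0.38 in the means (adjusted p = 0.0232 in limma). Its second probe, detected on 3 arrays, differed by 0.58 ± 0.22 and did not pass (adjusted p = 0.0916 in limma). Against WT the same gene was 0.96 ± 0.38 higher in Ts65Dn, which did not pass (adjusted p = 0.115 in limma). Zfp341, which activates the gene for STAT3 in human cells, gave 8.83, 8.84 and 8.77 against 7.43, 7.95 and 7.20, a difference of 1.28 ± 0.27. The tight Ts65Dn values lay above all those of Ts1Cje. Zfp395 differed by 1.26 ± 0.39, Zfp521 by 1.21 ± 0.27 and Zfp292 by 0.91 ± 0.26, and smaller differences were those of Zfp532, Zfp451 and Zfp281. In Ts1Cje Zfp395 and Zfp521 were each detected on 2 of 3 arrays, with means of 6.55 and 6.47. The lowest detected signals of those arrays were 6.54 to 6.87.

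Zfp78 gave 10.61, 9.97 and 9.58 in Ts1Cje against 8.95, 8.68 and 8.79 in Ts65Dn, a difference of -1.25 ± 0.23 (adjusted p = 0.00885 in limma). Against WT, whose comparison uses the same Ts65Dn arrays, it was -1.24 ± 0.23. Zfp654 differed from Ts1Cje by -1.16 ± 0.32 and from WT by -1.24 ± 0.32, and Zfp451 by 0.54 ± 0.14 and 0.59 ± 0.14. The Zfp281 difference was 0.52 ± 0.15 from Ts1Cje and 0.47 ± 0.15 from WT, and the latter did not pass.

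**Figure D5:**
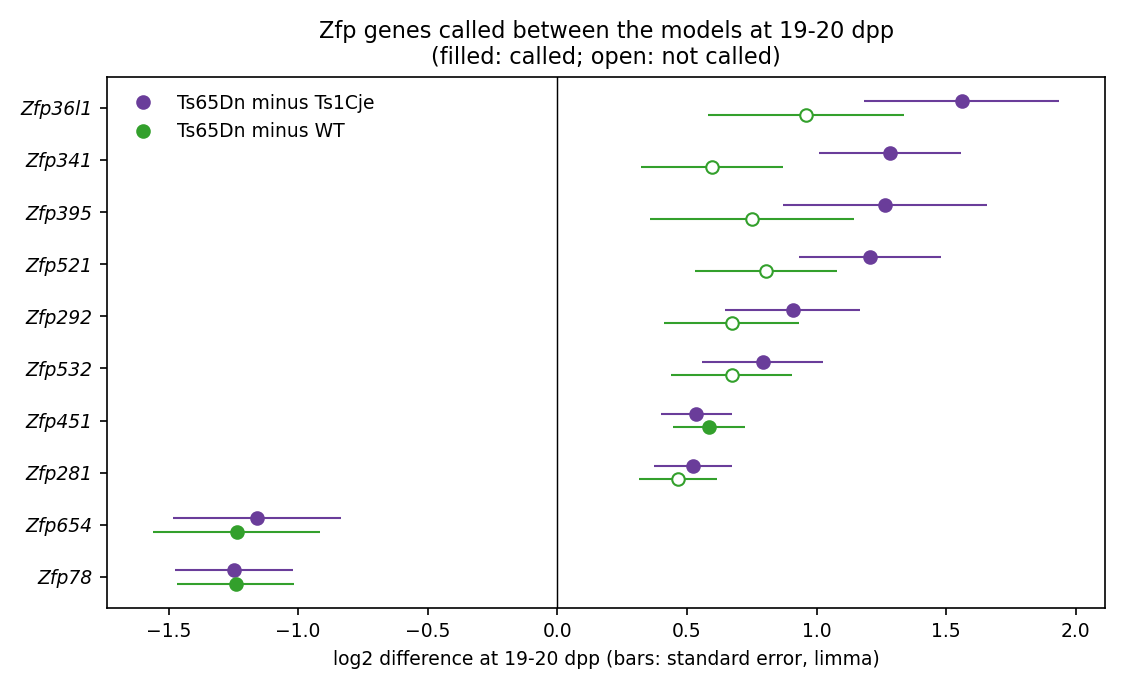
Log2 difference at 19-20 dpp (horizontal axis) between Ts65Dn and Ts1Cje and between Ts65Dn and WT for the 10 Zfp genes called between the models (vertical axis). Points are differences of means of 3 arrays, bars are standard errors, filled points were called and open ones were not. Both differences use the same Ts65Dn arrays. Zfp78 lies at -1.25 and -1.24, and Zfp36l1 at 1.56 and 0.96.

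These calls too depended on single arrays: without replicate 2 of Ts65Dn at 19-20 dpp the count was 0, and without replicate 3 of Ts65Dn or replicate 1 of Ts1Cje it was 1. With median scaling 13 were called and the median of all probes moved from 0.08 to 0.31, and the share of called genes that were higher in Ts65Dn went from 80.0% to 92.3%. The 4 spermatogonial markers tested were all called higher in Ts65Dn than in Ts1Cje at 19-20 dpp, with a list median of 1.20, and 2 of 8 round spermatid markers lower, with a list median of -1.67, as was 1 of 2 pachytene to diplotene markers (-1.24). Of the peritubular markers, 1 of 4 was higher. The part of these shifts in the Zfp differences was not tested.

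Some Zfp genes varied widely between replicates. Zfp93 had the widest spread, with a pooled standard deviation within groups of 1.13: it gave 8.19, 5.39 and 5.61 in WT at 16-17 dpp and 9.34, 9.29 and 8.19 at 19-20 dpp, so 1 earlier array stood about as high as the lowest later one. It was called higher at the later age in WT, by 2.54 ± 0.83, and by 3.44 ± 0.79 without that earlier array. The values 5.39 and 5.61 lie below the lowest detected signals of their arrays, 6.56 and 6.55. Without that array the WT change, and the differences from it below, therefore rest on an undetected starting level. In Ts1Cje Zfp93 gave 8.05, 7.34 and 7.56 and then 5.47, 7.66 and 8.05, and in Ts65Dn it gave 7.37, 8.70 and 8.40 and then 8.81, 7.07 and 5.84. The 5.47 and 5.84 readings of Zfp93 also lie below the lowest detected signals of their arrays, 6.87 and 6.39. Its age change differed from that of WT by -3.46 ± 1.17 in Ts65Dn (adjusted p = 0.222 in limma) and by -3.13 ± 1.17 in Ts1Cje, and by -4.36 ± 1.07 and -4.03 ± 1.07 without that array, and none of these passed. Zfp871 and Zfp68 were the next most variable, and Zfp644 the least, at 0.09. These were named after their spread was seen.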

How the data were processed

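Total RNA of 18 samples was hybridised to single-colour Illumina arrays. The deposited scanner files hold, per the file headers, an average bead intensity and a detection p-value per probe from BeadStudio (no version stated). The values show no background subtraction and no scaling between arrays (array medians 180 to 226). The deposited series table holds log2 values that share 1 distribution, and it served as an alternative.

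Intensities were corrected with limma's nec from the detection p-values (offset 16), put on the log2 scale and quantile-normalised. Of 46657 probes, 423 controls were left out, and 21317 had a detection p under 0.05 on at least 3 arrays. Genes were named through the gene number in the probe identifier: 8102 of 9995 numbers (81.1%) were found in RefSeq's table. A gene stands for its brightest probe. One limma model (limma 3.58.1, R 4.3.3) with the 6 groups gave 11 contrasts, each adjusted by Benjamini-Hochberg over all probes. Of these, only the age comparison in WT was also run on simulated data. The labels call the samples biological replicates. Bounds written "at least" compare the brighter group's mean with the lowest detected signal per array, or the probe's own where that is higher.

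The genes named are the largest called changes with no overlap between groups (8 each way with age in WT, 5 elsewhere), the 3 smallest p-values where fewer than 3 were called, the tested genes of the role lists and, for partner lists, the 2 largest called changes. Members and lists were chosen with earlier results of these data known. Alternatives changed the background correction, scaling, filter, probe, samples, weights and blocks. Same-numbered replicates were not paired in the main fit, as the labels name no pairing. Correlations of their deviations ran from -0.301 to 0.636 over 45 pairs, with a median of 0.265, and 33 exceeded 0.1. Counts with a replicate block are given below. The number of arrays limits the precision.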

Additional observations from a re-analysis of the deposited data

Results flagged for a closer look

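A pair of Zfp genes moved one way in all samples of one comparison and the opposite way in all samples of the other. Zfp783, the noncoding gene of the chromosome 6 cluster, changed with age by -0.73 in WT, from 7.53, 7.31 and 7.08 to 6.60, 7.03 and 6.10, and by 0.50 in Ts65Dn, from 6.63, 6.83 and 6.29 to 6.91, 7.5 and 6.85. The difference was 1.23 and did not pass as an interaction in limma (adjusted p = 0.277). Zfp783 is dim, and 1 of the 3 WT arrays at 19-20 dpp detected it. Zfp866 differed between Ts65Dn and WT by 0.49 at 16-17 dpp and by -0.30 at 19-20 dpp. The difference of -0.79 did not pass either (adjusted p = 0.269 in limma).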

How the results depend on the processing

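Counts of called Zfp genes moved by over 1.5 times as follows. The shares of all probes called under these settings are not given beside them. Neither the counts in this section nor those above for alternative fits or left-out arrays can therefore be read as particular to the Zfp genes. With limma's array weights they were 63 for age in WT, 55 for age in Ts65Dn, 3 and 43 for Ts65Dn against WT at 16-17 and 19-20 dpp, 30 for Ts65Dn against Ts1Cje at 19-20 dpp and 14 for the Ts65Dn difference in age change. With only the compared groups in the fit they were 10 for age in Ts1Cje (5 higher and 5 lower), 28 for age in Ts65Dn and 0 between the models at 19-20 dpp. With all probes kept they were 0 for age in Ts65Dn and 6 between the models at 19-20 dpp, and with probes detected on all arrays 3 for age in Ts65Dn. Median scaling left 1 for Ts65Dn against WT at 19-20 dpp.

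The replicate block gave 30 for age in Ts65Dn, at 19-20 dpp 18 between Ts65Dn and WT and 24 between the models, and 49 and 50 for age in WT and Ts1Cje. A block on runs of array numbers in the file headers, chosen after seeing the data, gave 16, 8 and 16 in the same 3 comparisons. The numbers are not known to mark a shared litter or day.

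Leaving out 1 array at a time gave 17 to 45 called for age in WT, 21 to 45 in Ts1Cje, 0 to 3 in Ts65Dn, and at 19-20 dpp 0 to 5 between Ts65Dn and WT and 0 to 13 between the models. Of the values for named genes, 1 reversed: Zfp955a with age in Ts65Dn, at -0.16 on its dimmer probe. The causes were not tested. Dim probes limit Zfp458, Zfp668, Zfp687, Zfp870 and Zfp871, which many arrays did not detect, and Zfp783, detected on 12. They also limit Zfp93, detected on 14 arrays, and Zfp395 and Zfp521, detected on 16.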
